A study of Mus musculus with 6 samples.

Results

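The 40 genes described here encode the machinery of mitosis: the kinases and cyclins that start it, the kinetochore and spindle checkpoint that attach chromosomes and hold the cell until they are attached, the motors that build the spindle, and the proteins that split the cell. They were listed by name, with no measured value in the rule but with earlier results of these data known, and all 40 were found among the 52550 genes of the deposited tables. RNA was sequenced from primary keratinocytes of the skin epidermis of wild-type C57BL/6 mice taken 0 to 2 days after birth. After 2 days in culture the cells either received recombinant IL-33, an alarmin cytokine related to IL-1, for 12 h (3 libraries) or stayed untreated (3 libraries). No genotype or other treatment differed between the groups, and no source used here states how much IL-33 was added. Separate cultures or litters are not named for the 3 libraries of a group, so each p-value rests on the spread among libraries alone, and that spread may be technical.

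In dividing cells, most of these genes are transcribed late in the cycle, in G2 and M phase, and are repressed in resting cells, so their RNA is widely used as a sign of proliferation. A complex of MuvB proteins with B-Myb (Mybl2) and the forkhead factor FoxM1 activates them through a promoter element called the CHR, usually beside CCAAT boxes bound by the factor NF-Y. In the epidermis, division belongs to the basal layer, and cells that differentiate leave the cycle.

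The libraries held 34188173 to 44255925 deposited estimated counts with IL-33 and 41456441 to 45266298 untreated, and the least abundant member had 473 counts in its lowest library. The 6 basal keratinocyte markers summed to 35261 to 37831 CPM (counts scaled to a common library total) with IL-33 and 35246 to 36229 CPM untreated, against 30.9 to 36.6 and 33.0 to 38.2 CPM for 6 suprabasal markers. Melanocyte markers, all 6 of them present, summed to 1116 to 1222 CPM with IL-33 and 1122 to 1175 CPM untreated. Of 7 immune cell markers Cd3e, Itgax, Trdc and Cd207 were at 0 in every library, and the 7 summed to at most 0.813 CPM with IL-33 and 0.619 CPM untreated. Fibroblast markers summed to 32.4 to 37.1 CPM with IL-33 and 35.8 to 43.9 CPM untreated, and 4 endothelial markers to 16.1 to 16.6 and 13.5 to 19.2 CPM. The share of other cells in the mitotic signal was not tested. IL-33 replicate 3 stood farther from the other IL-33 libraries (median chi-square 3.19 and 2.93 times its sampling value) than those did from each other (2.20). Untreated replicate 3 likewise stood at 2.57 and 2.72 from the other untreated libraries, against 2.24 between those. These values use counts divided by 4 and hold only if 1 fragment is worth about 4 counts.

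Mitotic genes were abundantly transcribed in both groups. In FPKM (fragments scaled by gene length and library total) of the whole gene, the 40 members lay between the 38.4th and the 96.6th percentile of the 15778 tested genes, with a median at the 78.8th, and 11 lay above the 90th. Summed over each gene's annotated transcripts, the highest was Ube2c, the ubiquitin-conjugating enzyme of the anaphase-promoting complex, at 190.5 ± 8.67 FPKM with IL-33 and 176 ± 4.69 FPKM untreated (SD, n = 3 per group). Next came Cdc20, the activator of that complex and target of the spindle checkpoint, at 92.0 ± 2.90 and 84.4 ± 1.63 FPKM. Anln, the actin-binding scaffold of the cleavage furrow, followed at 75.8 ± 1.09 and 70.8 ± 0.679 FPKM. The large kinetochore proteins were at the low end, with Knl1 at 2.88 ± 0.638 FPKM with IL-33 and 2.94 ± 0.202 FPKM untreated and Cenpf at 4.21 ± 0.773 and 3.66 ± 0.535 FPKM. The order at the top depended on how length was counted. By the deposited FPKM of the whole gene Cdc20 came first, at 87.2, 84.8 and 91.0 with IL-33 and 81.9, 81.0 and 78.7 untreated, ahead of Ube2c at 72.4, 67.2 and 74.3 with IL-33 and 67.6, 66.1 and 64.5 untreated. Knl1 was lowest on both scales.

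**Figure D1:**
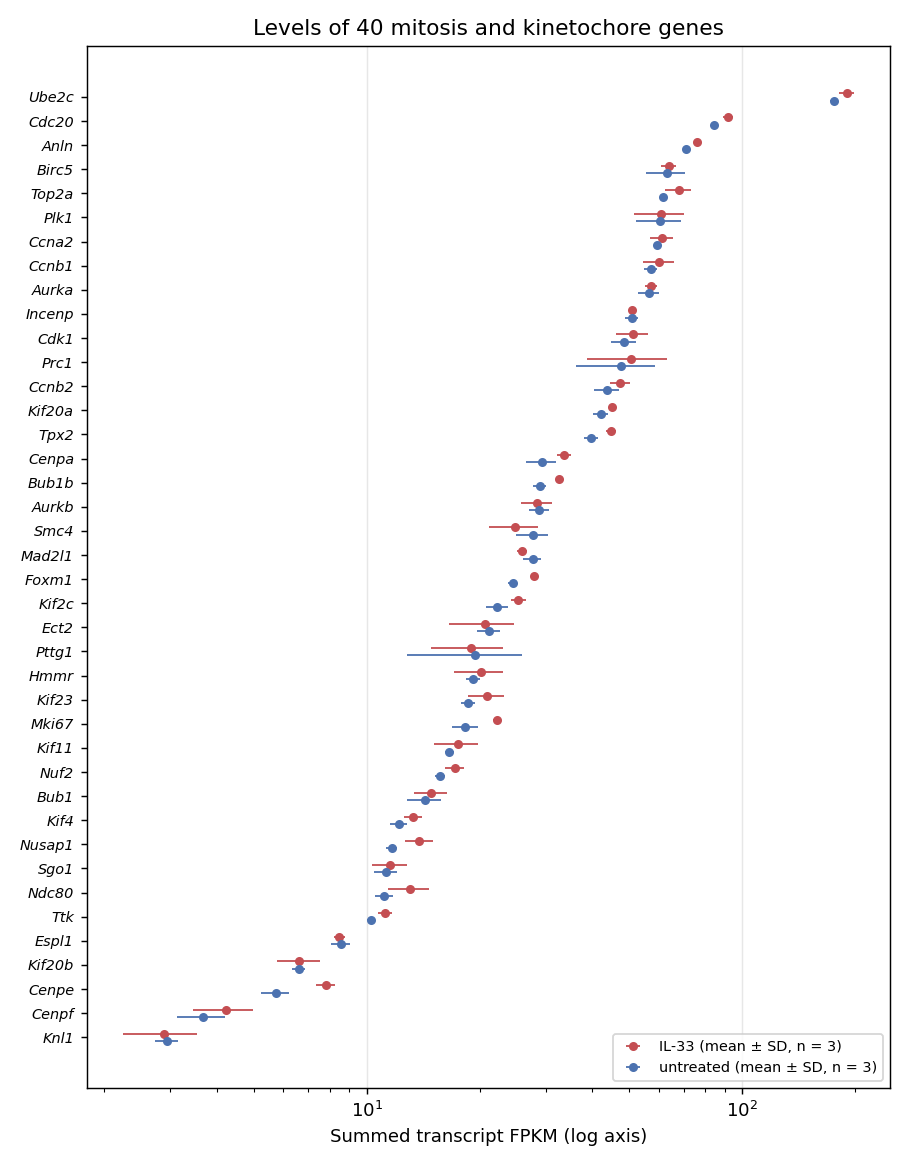
Level of each of the 40 members as FPKM summed over its annotated transcripts (log axis), mean ± SD over 3 libraries with IL-33 and 3 untreated. The order runs from Knl1, at 2.88 FPKM with IL-33 and 2.94 FPKM untreated, up to Ube2c, at 190.5 and 176 FPKM.

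Part of the members share promoter motifs. Where a gene had more than 1 promoter window, only the first listed was searched, so a motif near another start would be missed. In the 250 bases before the annotated start (RefSeq, GRCm38.p6; 33 of the 40 members were matched), 22 of 33 members (66.7%) held a CCAAT box on either strand, against 34.5% of 27025 genes, and 15 held more than 1, against 10.5% of genes. The CHR, searched as the letters TTTGAA and as the letters TTCGAA on both strands, was in 11 of 33 (33.3%, against 17.4% of genes). With the 50 bases after the start included, it was in 26 of 33 (78.8%, against 19.4%), and CCAAT was in 23 of 33 (69.7%, against 37.9%). Both motifs together were in 21 of 33 members in that longer window (63.6%), against 7.7% of genes. In the 250 bases before the start they were in 10 of 33 (30.3%), against 6.2%. E2F motifs (TTTCCCGC, TTTGGCGC, TTTCGCGC or TTTGCCGC, both strands) were in 1 of 33 (3.0%, against 1.9% of genes), the promoter of Cdk1. Promoters were not matched for Ccna2, Foxm1, Aurkb, Incenp, Kif20a, Tpx2 and Smc4. A match is a description of letters and was not tested for binding.

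Stretches of 6 of these promoters are printed below 5′ to 3′ from bases before the start that lie outside annotated exons, with CCAAT boxes (read as CCAAT, or on the other strand as ATTGG) and CHR elements (read as TTTGAA, on the other strand as TTCAAA, or as TTCGAA) in capitals. Mki67, Bub1b, Cdc20 and Top2a are shown because they were among the members with the smallest p below, and Cdk1 and Ccnb2 as core genes of mitotic entry. Cenpe and Nusap1, also matched and with smaller p than Cdc20 and Top2a, are not printed. In their 250 bases Cenpe held a CCAAT box but no CHR, and Nusap1 held neither. All 6 printed promoters hold both motifs, against 10 of 33 members (30.3%) in that window.
Mki67, chr7:135716380-135716629, minus strand: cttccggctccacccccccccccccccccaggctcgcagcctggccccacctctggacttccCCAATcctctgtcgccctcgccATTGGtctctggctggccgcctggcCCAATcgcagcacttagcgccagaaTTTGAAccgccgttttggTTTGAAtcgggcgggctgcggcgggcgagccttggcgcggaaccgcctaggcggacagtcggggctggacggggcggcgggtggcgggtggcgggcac
Bub1b, chr2:118597961-118598210, plus strand: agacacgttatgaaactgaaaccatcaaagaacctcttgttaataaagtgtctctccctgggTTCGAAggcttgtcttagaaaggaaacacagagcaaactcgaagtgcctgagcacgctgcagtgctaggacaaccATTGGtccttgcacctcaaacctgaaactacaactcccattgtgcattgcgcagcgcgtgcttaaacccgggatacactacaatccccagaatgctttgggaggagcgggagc
Cdc20, chr4:118437353-118437593, minus strand: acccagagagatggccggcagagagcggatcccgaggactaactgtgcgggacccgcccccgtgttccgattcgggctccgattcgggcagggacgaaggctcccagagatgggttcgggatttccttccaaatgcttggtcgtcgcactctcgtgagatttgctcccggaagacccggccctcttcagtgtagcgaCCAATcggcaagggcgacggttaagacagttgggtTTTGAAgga
Top2a, chr11:99024190-99024439, minus strand: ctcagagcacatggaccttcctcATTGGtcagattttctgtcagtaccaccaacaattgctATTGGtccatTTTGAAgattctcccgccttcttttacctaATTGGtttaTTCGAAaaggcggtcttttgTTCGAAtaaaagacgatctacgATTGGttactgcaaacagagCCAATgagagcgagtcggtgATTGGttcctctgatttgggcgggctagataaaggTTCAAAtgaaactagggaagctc
Cdk1, chr10:69352939-69353162, minus strand: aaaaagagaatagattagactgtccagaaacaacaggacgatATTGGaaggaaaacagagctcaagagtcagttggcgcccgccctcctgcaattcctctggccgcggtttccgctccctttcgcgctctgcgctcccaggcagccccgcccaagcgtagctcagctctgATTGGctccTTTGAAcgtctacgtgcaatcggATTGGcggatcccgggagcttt
Ccnb2, chr9:70421555-70421804, minus strand: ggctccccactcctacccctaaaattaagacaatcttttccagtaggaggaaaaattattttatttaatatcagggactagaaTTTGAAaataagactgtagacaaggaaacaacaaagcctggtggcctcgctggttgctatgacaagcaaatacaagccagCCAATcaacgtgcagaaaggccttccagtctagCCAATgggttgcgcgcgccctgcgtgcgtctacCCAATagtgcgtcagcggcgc
In Ccnb2, the 3 CCAAT boxes begin 87, 54 and 21 bases before the start, an even spacing. Top2a has 6 CCAAT boxes and 4 CHR matches in its 250 bases. In Cdc20, a CCAAT box begins 53 bases before the start and a CHR element 18 bases before it.

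The comparison asks whether these transcripts differ in the bulk RNA of the cultures after 12 h of IL-33. No member passed edgeR's quasi-likelihood test (0 of 40 at an adjusted p under 0.05, against 0.0697% of all tested genes), and adjusted p ran from 0.307 to 1.00. At an unadjusted p under 0.05 there were 11 members, all with higher values with IL-33, against 3.42% of all genes in that direction (4.22% of genes at least as abundant as the least abundant member) and 3.31% in the other. DESeq2 called 2 members, Cenpe and Mki67 (against 0.32% of the genes it gave an adjusted p), and limma-voom called none. DESeq2 on counts divided by 4, closer to the number of fragments if 1 fragment is worth about 4 deposited counts, called 0 members. The log2 fold change was above 0 for 31 of 40 members, against 50.5% of all genes, with a median of 0.09 for the members and 0.00 for all genes. Without untreated replicate 2 the 11 members were 6, and without untreated replicate 3 they were 7. Without IL-33 replicate 3 the median was 0.05 and 23 members lay above 0. In 12 members all 3 IL-33 libraries lay above all 3 untreated ones, against 7.39% of all genes, or 8.31% of those at least that abundant. In 1, Aurkb, they lay below, against 6.26% of all genes.

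The differences were small. The 95% interval of the fold change lay within 0.8 to 1.25 for 28 members and excluded 1.5-fold in either direction for 39, the exception being Pttg1. In this bulk RNA, a different share of dividing cells and a different amount of mitotic RNA per dividing cell cannot be told apart.

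**Figure D2:**
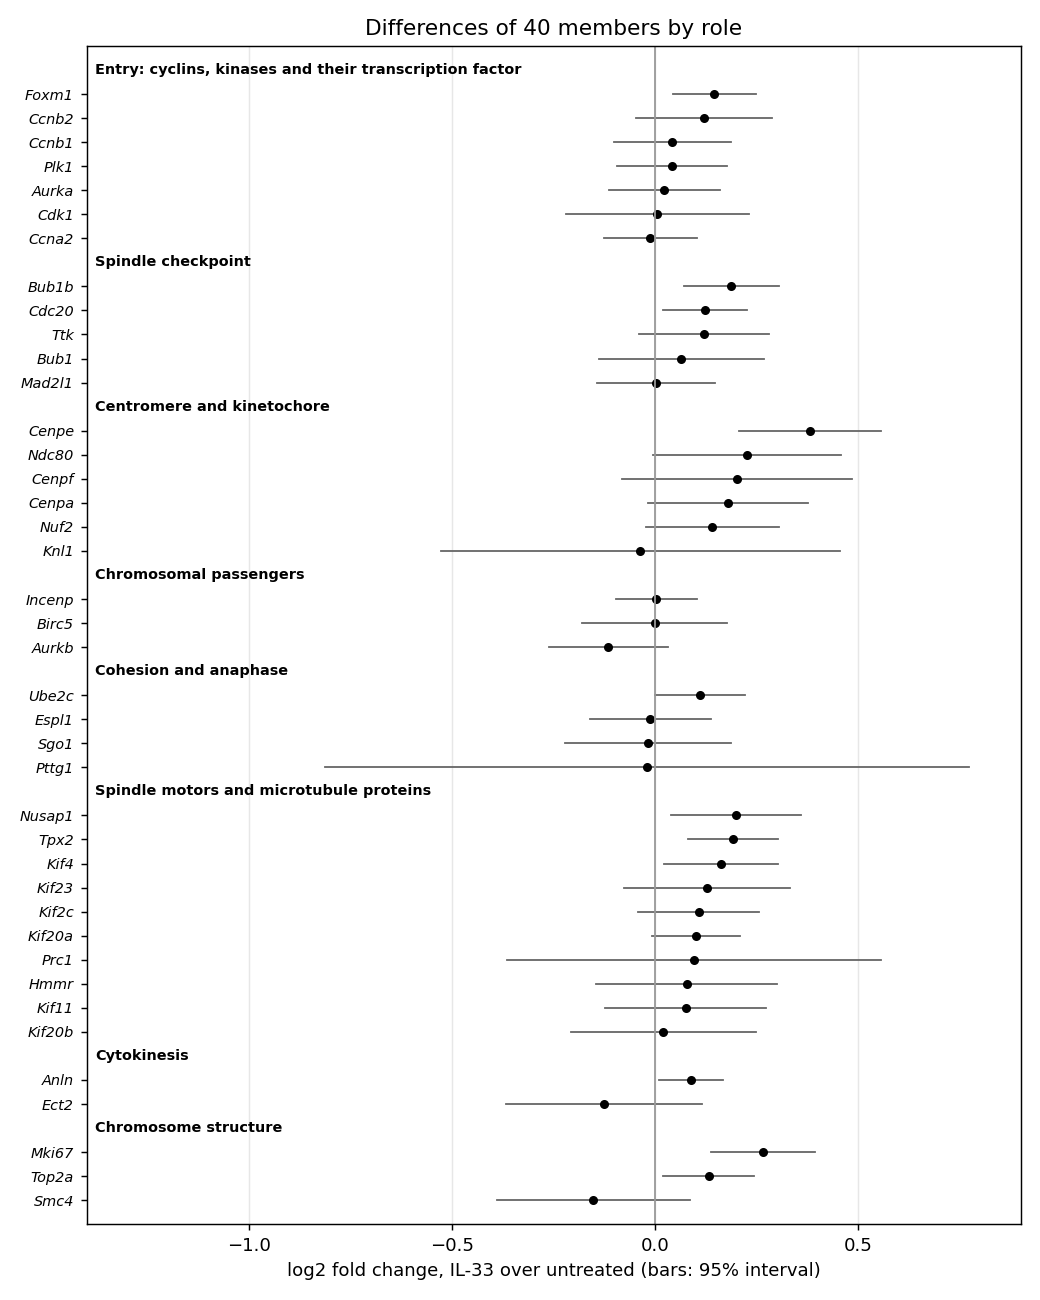
Log2 fold change of each member, IL-33 over untreated, with an approximate 95% interval derived from the edgeR test, grouped by role. Most points lie right of 0, Cenpe farthest at 0.38, and 11 of the 40 intervals lie wholly above 0.

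IL-33 replicate 3 was the highest of the 6 libraries in 20 of 40 members and the lowest in none, while untreated replicate 3 was the lowest in 15 and untreated replicate 2 in 10. The median member stood 0.05, 0.05 and 0.15 above the untreated mean on the log2 scale in IL-33 replicates 1, 2 and 3, and at 0.04, -0.01 and -0.01 in untreated replicates 1, 2 and 3. IL-33 replicates 1 and 2 therefore lay at about the same height as untreated replicate 1. The 35 DNA replication genes had medians of 0.04, 0.02 and 0.08 in IL-33 replicates 1, 2 and 3 and of 0.02, 0.00 and -0.03 in untreated replicates 1, 2 and 3.

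**Figure D3:**
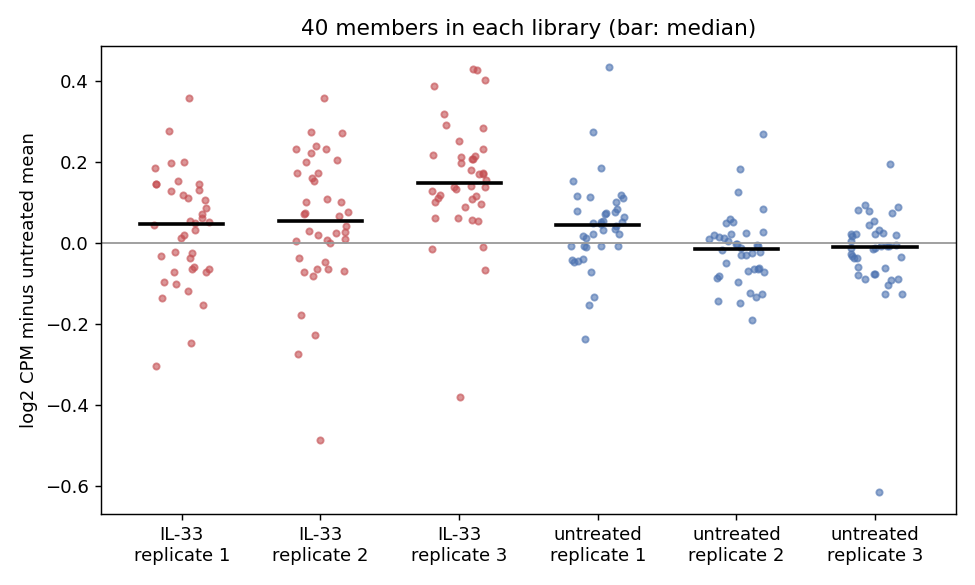
Log2 CPM of each of the 40 members in each library, minus that member's mean over the 3 untreated libraries; the bar is the median over members. IL-33 replicate 3 sits highest at 0.15, and the medians of the other 5 libraries lie between -0.01 and 0.05.

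Among the genes that start mitosis, Foxm1 differed most and Cdk1 itself was nearly level. Foxm1 (chromosome 6, 128362967 to 128376146), the forkhead factor that activates G2 and M phase genes, stood at 124, 125 and 124 CPM with IL-33 and at 112, 111 and 115 CPM untreated. The groups did not overlap, and the fold change was 1.11 (95% interval 1.03 to 1.19, edgeR adjusted p = 0.660). Cdk1, the kinase that drives entry into mitosis, stood at 137, 160.3 and 163 CPM with IL-33 and at 165, 133 and 160.1 CPM untreated, a fold change of 1.00 (0.858 to 1.17). Its lowest library with IL-33 and its lowest untreated library lay well below the others of their group, so the groups overlapped over nearly their whole range. Ccnb1, the cyclin partner of Cdk1, stood at 145, 153 and 171 CPM with IL-33 and at 156, 145 and 154 CPM untreated, with IL-33 replicate 3 alone above the untreated range. Plk1, the polo kinase of centrosomes and kinetochores, stood at 120.0, 110.1 and 127 CPM with IL-33 and at 112, 117 and 117 CPM untreated (1.03-fold, 0.936 to 1.13). Log2 fold changes of the other 3, the cyclins Ccnb2 and Ccna2 and the spindle pole kinase Aurka, were 0.12, -0.01 and 0.02. None of the 7 passed.

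All 5 genes of the spindle checkpoint had a log2 fold change above 0, and 3 of them had groups that did not overlap, against 50.5% of all genes above 0 and 7.39% without overlap in that direction. Bub1b (chromosome 2, 118598211 to 118641591), which encodes the checkpoint protein BubR1, stood at 129, 127 and 132 CPM with IL-33 and at 118, 115 and 107 CPM untreated, a fold change of 1.14 (1.05 to 1.23, edgeR adjusted p = 0.575). Cdc20 stood at 181, 176 and 189 CPM with IL-33 and at 169.9, 169 and 163 CPM untreated (1.09-fold, 1.01 to 1.17, edgeR adjusted p = 0.740). In both genes each IL-33 library exceeded each untreated one. Exons of Cdc20 overlap those of Elovl1 on the opposite strand, so its count is uncertain. Ttk, the checkpoint kinase Mps1, had a log2 fold change of 0.12 without overlap. Bub1, a checkpoint kinase, and Mad2l1, the inhibitor of Cdc20, had values of 0.06 and 0.00 and overlapped. With 1 library left out, the lowest values of Bub1 and Mad2l1 were -0.01 and -0.04.

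Centromere and kinetochore genes held the member with the largest difference. Cenpe (chromosome 3, 135212537 to 135273611) encodes a kinesin that carries chromosomes along microtubules to the spindle equator. It stood at 58.9, 58.9 and 62.0 CPM with IL-33 and at 41.2, 47.8 and 49.0 CPM untreated. All IL-33 libraries lay above all untreated ones, and untreated replicate 1 was the lowest. With 1 library left out, the log2 fold change ran from 0.30 (without untreated replicate 1, edgeR adjusted p = 0.683) to 0.43 (without untreated replicate 3), against 0.38 with all libraries. The fold change was 1.30 (1.15 to 1.47), which missed the threshold with edgeR (adjusted p = 0.307) and passed with DESeq2 on the deposited counts (adjusted p = 0.0169) but not on counts divided by 4 (DESeq2 adjusted p = 0.0995). Ndc80, of the complex that grips microtubules, stood at 28.1, 31.4 and 36.2 CPM with IL-33 and at 27.1, 25.9 and 28.8 CPM untreated, where IL-33 replicate 1 lay inside the untreated range. Its partner Nuf2 did not overlap between groups (log2 fold change 0.14), while the centromeric histone Cenpa (0.18), the corona protein Cenpf (0.20) and the scaffold Knl1 (-0.04) overlapped.

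The 3 chromosomal passenger genes and most of the anaphase genes differed little. Aurkb, the kinase that corrects faulty attachments, stood at 52.3, 49.4 and 53.4 CPM with IL-33 and at 56.8, 53.5 and 57.7 CPM untreated, the single member in which every IL-33 library was the lower one (log2 fold change -0.12, edgeR adjusted p = 0.777). The nearest libraries, at 53.4 CPM with IL-33 and 53.5 CPM untreated, were almost level. Birc5, the passenger protein survivin, stood at 66.7, 71.0 and 73.2 CPM with IL-33 and at 78.1, 68.7 and 64.2 CPM untreated, and the scaffold Incenp had a log2 fold change of 0.00. Ube2c stood at 209, 194 and 215 CPM with IL-33 and at 195, 192 and 186 CPM untreated (1.08-fold, 1.00 to 1.17), with IL-33 replicate 2 inside the untreated range. Log2 fold changes of Espl1 (separase), Pttg1 (securin, its inhibitor) and Sgo1 (shugoshin, which protects cohesin at centromeres) were -0.01, -0.02 and -0.02. The interval of Pttg1 ran from 0.569-fold to 1.71-fold, the widest of the 40.

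All 10 genes of spindle motors and microtubule proteins had a log2 fold change above 0, from 0.02 for Kif20b to 0.20 for Nusap1. Of all tested genes 50.5% lay above 0. With 1 library left out, the lowest values fell below 0 for Kif20b (-0.09), Prc1 (-0.06), Hmmr (-0.04) and Kif11 (-0.04). Tpx2 (chromosome 2, 152847964 to 152895321), which activates Aurora A and nucleates spindle microtubules, stood at 178, 189 and 185 CPM with IL-33 and at 168, 161 and 154 CPM untreated, a fold change of 1.14 (1.06 to 1.23, edgeR adjusted p = 0.504). Nusap1, a microtubule bundling protein, stood at 43.2, 48.6 and 46.4 CPM with IL-33 and at 39.0, 41.5 and 39.9 CPM untreated (1.15-fold, 1.03 to 1.28). Neither gene overlapped between groups. Kif4, a chromosome-bound kinesin, stood at 74.0, 72.6 and 69.6 CPM with IL-33 and at 68.0, 61.5 and 63.7 CPM untreated (1.12-fold, 1.01 to 1.23). Its exons overlap those of Pdzd11 on the opposite strand and it has an annotated pseudogene, Kif4-ps, so its count is uncertain. Exons of Nusap1 likewise overlap those of Oip5 on the opposite strand. Kif11, the motor that separates spindle poles, and Hmmr, a spindle assembly factor, had log2 fold changes of 0.07 and 0.08. In both, IL-33 replicate 3 was highest, at 108 and 100.2 CPM, while IL-33 replicates 1 and 2 stood at 86.8 and 86.1 CPM for Kif11 and at 75.3 and 83.4 CPM for Hmmr. Log2 fold changes of the central spindle genes Kif23, Kif20a and Prc1 were 0.13, 0.10 and 0.10, and that of Kif2c, which depolymerizes microtubules, was 0.11.

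Of the 2 cytokinesis genes and the 3 genes of chromosome structure, those for Anln, Mki67 and Top2a had groups that did not overlap, all higher with IL-33. The share over all tested genes without overlap in that direction was 7.39%. Mki67 (chromosome 7, 135689784 to 135716361), whose product Ki-67 coats mitotic chromosomes and is the usual marker of dividing cells, stood at 248, 247 and 244 CPM with IL-33 and at 186, 212 and 217 CPM untreated. The groups did not overlap. The coefficient of variation was 0.969% with IL-33 and 7.92% untreated, where replicate 1 was lowest. With 1 library left out, the log2 fold change ran from 0.19 (without untreated replicate 1, edgeR adjusted p = 0.683) to 0.31 (without untreated replicate 3), against 0.26 with all libraries. The fold change was 1.20 (1.10 to 1.31), not called by edgeR (adjusted p = 0.319) and called by DESeq2 on the deposited counts (adjusted p = 0.0428) but not on counts divided by 4 (DESeq2 adjusted p = 0.105). Top2a, the topoisomerase that untangles sister chromatids, stood at 315, 329 and 358 CPM with IL-33 and at 308, 304 and 302 CPM untreated (1.10-fold, 1.01 to 1.18). Anln stood at 373, 367 and 378 CPM with IL-33 and at 354, 350.1 and 349 CPM untreated (1.06-fold, 1.01 to 1.12). Smc4, a condensin subunit, and Ect2, the exchange factor that activates RhoA at the cleavage furrow, had log2 fold changes of -0.15 and -0.13, with IL-33 replicates 1 and 2 below the untreated range and replicate 3 inside or above it.

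**Figure D4:**
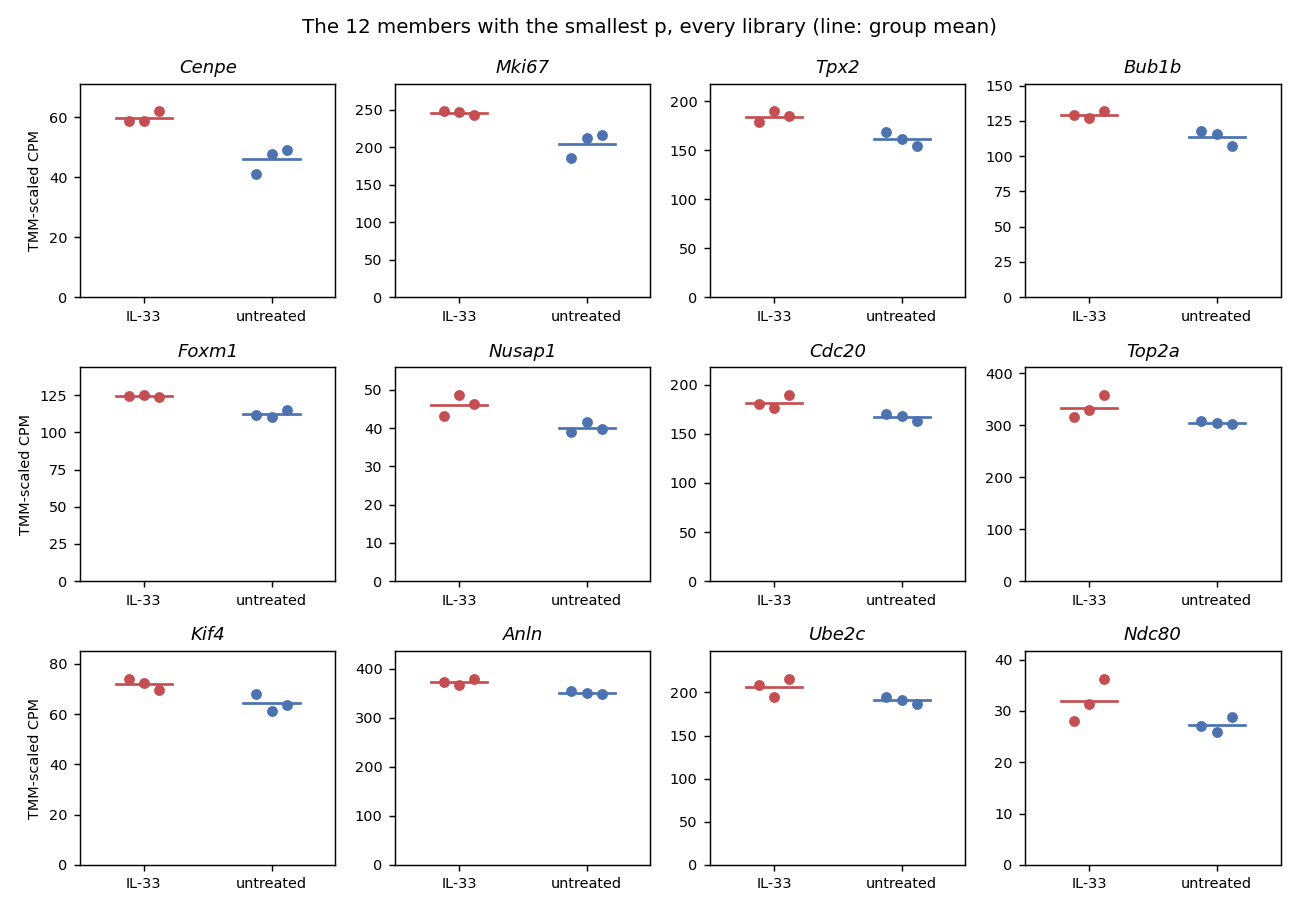
TMM-scaled CPM in every library of the 12 members with the smallest p (points; the line is the group mean; axes start at 0). In 10 of the panels the IL-33 points lie above the untreated ones, and in Ube2c and Ndc80 they overlap. Because the 12 were chosen by p, separated groups follow largely from the choice. Of all tested genes 7.39% lay higher without overlap.

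Of the annotated transcripts of the 40 members, 142 were tested and none was called (against 0.0299% of 40163 tested transcripts), while 14 had an unadjusted p under 0.05 (against 4.24%), 12 of them higher with IL-33. In 21 members 1 transcript held over 90% of the untreated signal of the tested transcripts, Mki67, Foxm1 and Cenpf among them. For Mki67 and Cenpf only 1 transcript was tested, so its share is 100% by construction. The Nusap1 transcript ENSMUST00000068225.14 stood at 39.3 ± 6.20 CPM with IL-33 and 28.9 ± 1.87 CPM untreated (SD, n = 3 per group), and ENSMUST00000028771.7 at 6.89 ± 4.51 and 11.5 ± 1.52 CPM. For Smc4 the assignment switched between libraries of the same group. ENSMUST00000148385.7 held 68.4, 0 and 0 CPM with IL-33 and 42.8, 35.2 and 110.1 CPM untreated, against 31.9, 104 and 128 CPM with IL-33 and 84.7, 77.6 and 21.7 CPM untreated for ENSMUST00000042901.14.

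Of the rest of the pathway, 164 other genes in 6 lists were all tested. In the 5 lists other than the regulators of mitotic promoters, none of 149 genes passed with edgeR, while 10 were higher and 1 lower with IL-33 at an unadjusted p under 0.05, against 0.0697% of all genes called and 3.42% higher and 3.31% lower at that p. Among 41 other spindle and cytokinesis genes, 28 lay above 0 and the middle log2 fold change was 0.07. The microtubule polymerase Ckap5 stood at 193 ± 4.34 CPM with IL-33 and 171 ± 3.08 CPM untreated, the spindle pole gene Aspm at 45.8 ± 2.10 and 39.8 ± 1.60 CPM, and the minus-end kinesin Kifc1 at 119 ± 2.04 and 94.9 ± 16.2 CPM. Of 40 other kinetochore and checkpoint genes 24 were above 0 (median 0.03). A pair with small p went in opposite directions, Spdl1, which brings dynein to kinetochores, at 35.1 ± 0.886 and 29.5 ± 1.08 CPM, and Spc25, of the Ndc80 complex, at 23.4 ± 2.71 CPM with IL-33 and 33.0 ± 7.16 CPM untreated. Condensin and cohesin genes (14 of 16 above 0, median 0.06), genes of the anaphase-promoting complex (11 of 17, median 0.03) and DNA replication genes (28 of 35, median 0.04) also had medians near 0. Among them were Fzr1, the activator of the anaphase-promoting complex in G1, at 87.5 ± 1.32 and 74.4 ± 1.72 CPM, and Chaf1a, a chromatin assembly subunit, at 161 ± 4.28 and 141 ± 7.12 CPM. Of all tested genes 50.5% lay above 0 and 7.39% were higher without overlap between groups. Higher without overlap were 8 of 35 DNA replication genes and 8 of 41 other spindle and cytokinesis genes. The anaphase-promoting complex had 3 of 17, other kinetochore and checkpoint genes 1 of 40, and condensin and cohesin genes 1 of 16. The shift above 0 was therefore not particular to the 40 members.

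Of 15 regulators of mitotic promoters, edgeR called 2 higher, Nfya and Tfdp2, against 0.0697% of all tested genes called. The list was chosen with earlier results of these data known, so this share does not describe such regulators in general. Above 0 were 12 of the 15, against 50.5% of all genes, and 5 were higher without overlap, against 7.39%. Nfya, the DNA-contacting subunit of NF-Y, stood at 68.9, 75.4 and 67.8 CPM with IL-33 and at 37.7, 35.9 and 38.8 CPM untreated (1.89-fold, edgeR adjusted p = 0.00128), while its partners Nfyb and Nfyc had log2 fold changes of -0.04 and 0.04. Adjusted p of Nfya stayed between 3.64e-23 and 0.0274 under all alternatives. Tfdp2, a partner of E2F factors, stood at 27.0, 24.5 and 24.6 CPM with IL-33 and at 10.7, 8.65 and 11.1 CPM untreated (2.50-fold, edgeR adjusted p = 0.00231), but it did not pass with limma on log2(FPKM + 0.1) or log2(FPKM + 1), with adjusted p of 0.175 and 0.158. Over all alternatives its adjusted p ran from 1.78e-17 to 0.175. Mybl2 (0.06) and the MuvB subunit Lin54 (0.15) did not pass. A part of Nfya in the members' values was not tested, and the split given here only describes them. The 22 members with a CCAAT box in the 250 bases shown above had a median log2 fold change of 0.12. Of these, 20 lay above 0, against 50.5% of all tested genes, and the range was -0.13 to 0.38. The 11 searched members without one had a median of 0.02, with 7 above 0 and a range of -0.04 to 0.23. Members without a matched promoter are in neither group and ran from -0.15 (Smc4) to 0.19 (Tpx2). The same split was not made over all tested genes. Split by the CHR in the same window, the 11 members with it had a median of 0.11, 9 of them above 0, and the 22 without it a median of 0.08, 18 of them above 0. Many of those 22 carry a CHR at or just after the start, since 26 of 33 members held it in the longer window. No split by the longer window was made. The ranges of those with and without a CCAAT box overlapped.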

How the data were processed

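RNA-seq libraries were made with the VAHTS mRNA-seq V3 kit, per the labels' protocols. Per the submitters' processing notes, the build was mm10 and the tools were HISAT2 2.1.0, FastQC 0.11.7, DESeq2 1.18.1 and StringTie 1.3.4d; their roles are not stated. The annotation release, the strand setting and the treatment of multiply mapped reads are likewise unstated in the sources used here. The authors' deposited estimated counts are whole numbers, and in each library all transcripts of 1000 counts or more were proportional, within 1%, to the deposited FPKM times exon length, so they are estimates and not raw reads. Per the file headers, the other tables hold FPKM, scaled by the authors to length and library total. Low counts rebuilt from FPKM piled up within 0.125 of 4 (1382 transcripts in untreated replicate 1, against 405 at 3 and 318 at 5), so 1 fragment may be worth about 4 counts.

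Of 52550 gene identifiers 52403 matched a symbol. Positions are from GENCODE M21 (GRCm38, the assembly of mm10), a release that may differ from theirs. Groups were compared by the quasi-likelihood test of edgeR 4.0.16 in R 4.3.3, with TMM scaling, a robust fit and filterByExpr at a minimum count of 10, on 3 IL-33 and 3 untreated libraries. P-values were adjusted over all 15778 tested genes by the Benjamini-Hochberg method at 0.05, and all 40 members passed the filter. Log2 fold changes are IL-33 over untreated, and CPM values are TMM-scaled, except in the sums of cell type markers, which use library totals. Deviations per library use log2(CPM + 0.5). On counts simulated for this comparison (15443 genes), 14.3% of genes changed 1.25-fold and 84.0% of those changed 1.5-fold were recovered, with 16 false calls among the unchanged genes. The alternatives were other scalings, DESeq2 1.42.0, limma 3.58.1 (voom, and on log2 FPKM), other filters, counts divided by 4, the replicate number as a block, and each library left out.

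The members and lists were chosen with earlier results of these data known. Values by library or group were chosen for the 12 members with the smallest p and for Cdk1, Ccnb1, Plk1, Foxm1, Mki67 and Birc5, for other lists up to 3 genes with the smallest p, and for Nfya, Nfyb, Nfyc, Mybl2, Lin54 and Tfdp2. Library values of Aurkb, Kif11, Hmmr, Prc1, Pttg1 and of Nusap1 and Smc4 transcripts were picked after their values were seen. Exons of 10 members overlap another annotated gene: Ccna2, Plk1, Foxm1, Cdc20, Ube2c, Kif20a, Kif4, Nusap1, Prc1 and Top2a. A further source of doubt is an annotated pseudogene of the same name in 3 members (Ccnb1, Ccnb2 and Kif4). The counts of all these members are uncertain.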

Additional observations from a re-analysis of the deposited data

How the results depend on the processing

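Of 272 values of 16 named members under 17 alternatives, 257 kept their direction and their side of the threshold. Called members numbered 0 under all alternatives but DESeq2, which called 2, Cenpe and Mki67 with adjusted p of 0.0169 and 0.0428. DESeq2 called 60 genes in all, 32 on counts divided by 4, and edgeR without a filter 17, against 11; limma called 4 on log2(FPKM + 0.1) and 4 on log2(FPKM + 1), and leaving out 1 library gave 11 to 90. The 90 came with IL-33 replicate 3 omitted; omitting untreated replicate 3 gave 18, and omitting IL-33 replicate 1 gave 20. Members at an unadjusted p under 0.05 numbered 6 with DESeq2 on counts divided by 4 and 6 to 10 with 1 library left out, 6 and 7 of them without untreated replicates 2 and 3. That count was added after the data had been seen. The median log2 fold change of the members ran from 0.05 to 0.12 with 1 library left out. The cause of these shifts was not tested.

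Among the named genes counted here, signs turned for these. Cdk1 was -0.0017 without a filter and ran from -0.0892 to 0.0803 with 1 library left out, -0.0285 and -0.0391 of them without IL-33 replicates 2 and 3. Omitting single libraries gave -0.0257 to 0.0904 for Ccnb1, -0.0064 to 0.0927 for Plk1 and -0.0622 to 0.0746 for Birc5, which was also 0.0084 with upper-quartile factors, 0.0018 with limma-voom, and 0.0025 and 0.0023 with limma on log2(FPKM + 0.1) and log2(FPKM + 1). Of 221 values of 13 other named genes 215 kept direction and call. With 1 library left out, Nfyb ran from -0.1026 to 0.0240, Nfyc from -0.0543 to 0.1456 and Lin54, at 0.15 with all libraries, from -0.0216 without untreated replicate 3 to 0.2625. Tfdp2 was 1.21 and 0.67 with limma on log2(FPKM + 0.1) and log2(FPKM + 1) and was not called. Libraries with the same number showed no clear shared deviation (correlations of 0.055, 0.083 and -0.004, against -0.107 to 0.06 for different numbers). A pairing by number was thus not seen, but so few libraries cannot exclude it. With the replicate number as a block 8 genes and 0 members were called, and Birc5 was 0.0027. With 50 bases after the start included, CHR letters were in 26 promoters and both motifs in 21.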

Other observations

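The members differed in how tightly they were measured. The coefficient of variation between libraries had a median of 6.08% with IL-33 and 5.24% untreated, and ran from 0.491% (Foxm1) to 24.7% (Knl1) with IL-33 and from 0.705% (Anln) to 35.2% (Pttg1) untreated. Pttg1 stood at 18.7, 19.3 and 12.4 CPM with IL-33 and at 22.2, 18.5 and 10.4 CPM untreated, so replicate 3 was the lowest in both groups. Its RNA was spread over many transcripts, the leading one with 31.4% of the untreated signal of its tested transcripts. Prc1, which bundles microtubules of the central spindle, stood at 125, 121 and 167 CPM with IL-33 and at 155, 115 and 117 CPM untreated, with 1 high library in each group. A difference between the groups was not detectable for Prc1 at this spread (log2 fold change 0.10, 95% interval -0.36 to 0.56).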
